A study of Blattella germanica with 16 samples.

Results

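The control group of this RNA interference study is fat body from adult German cockroach (Blattella germanica) females that received the control double-stranded RNA, labelled dsMock. Its members were taken by label alone: 4 libraries out of 16, the other 12 coming from females given dsRNA against 1 of 3 insulin receptors, which are not used here. Each female received 2 µg of dsRNA in the abdomen, with 2 injections 7 days apart. The labels give 2 timings that do not match: the series design starts on the first day of ootheca transport and dissects on day 5 of the second reproductive cycle, after the ootheca, which is the egg case, was removed on day 12, whereas the treatment protocol puts the injections 12 and 5 days before extraction. The colony was held at 30 °C and 70% relative humidity and fed dog food. The columns of this group are headed dspolyh, a name the labels do not explain, and the samples include no uninjected group, so the values describe an injected control and not an untouched tissue. No source used here states the strain, the age in days or the number of animals behind a library. Libraries are named by the number in their column (1, 3, 4 and 5), which is not the replicate number of the sample titles.

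The insect fat body combines tasks that vertebrates divide between liver and adipose tissue: it stores fat and glycogen, handles nitrogen, and secretes most of the proteins of the hemolymph. In a female that is maturing oocytes it makes yolk precursor proteins in bulk, which the ovary takes up from the hemolymph. In cockroaches juvenile hormone drives that synthesis, and insulin and TOR signalling link it to feeding. Nothing was contrasted between treatments here; the values ask what the transcripts of this tissue were, how concentrated they were, and how far 4 libraries of 1 group differed.

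Total counts were 20254956, 16968228, 15345964 and 21188257 reads in libraries 1, 3, 4 and 5. At least 10 reads were counted for 9686 ± 329 genes per library (SD, n = 4), of 28676 in the table, and 8665 genes reached that number in all 4. Of those 8665 genes 4022 have an informative product name and 4643 do not. A gene at 0 reads could be present at up to 0.142 to 0.195 CPM (counts in 1000000 reads of the library total), the level of 3 reads, depending on the library. CPM values of genes given further on are also scaled by TMM in edgeR, which corrects the library total for the weight of its most abundant transcripts. In the shallowest library a share of 0.01% rests on 1535 reads and has an exact (Clopper-Pearson) 95% interval of 0.00951 to 0.0105%. Such limits cover counting error only, and PCR copies are not independent molecules.

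One transcript made up more than all others together. C0J52_15443, which spans PYGN01001172.1:18821-36073 on build Bger_1.1 and is annotated only as a hypothetical protein, took 51.1%, 57.4%, 53.1% and 58.8% of the reads of libraries 1, 3, 4 and 5. Libraries 3 and 5 were the higher pair, and the mean was 55.1 ± 3.58% (SD, n = 4). Shares of reads grow with the length of a transcript, and values per length were not used, so every share given here is one of reads and not of molecules. The annotation of this genome names no vitellogenin or other yolk precursor, so whether this gene encodes one could not be checked, and the vitellogenic state given to these females has no named marker here. The gene overlaps 1 other annotated gene, C0J52_15444, which took 0.000253% of the reads.

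The rest of each library was spread over many genes. With all reads counted, 820 ± 116 genes held 90% of them, from 727 in library 3 to 972 in library 1. Leaving out the most abundant gene, 106 ± 8.04 genes held 50% and 2169 ± 54.0 held 90% of what remained, and the libraries then ranged only from 2119 to 2233 genes. The 100 most abundant genes of a library took 77.2 ± 1.81% of all reads and 49.4 ± 0.947% of the reads without the leading gene. The plot of cumulative share shows libraries 3 and 5 above libraries 4 and 1 over the first genes, and all 4 close together once the leading gene is left out.

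**Figure D1:**
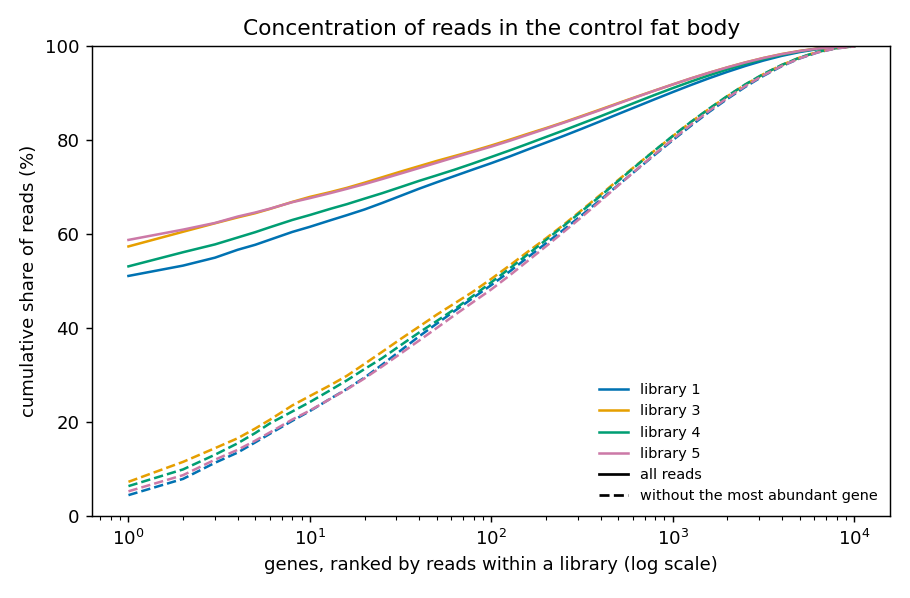
Cumulative share of reads (%, vertical axis) against the number of genes ranked by reads within a library (horizontal axis, log scale) for the 4 control libraries; solid lines use all reads and dashed lines leave out the most abundant gene. The solid lines start at 51.1 to 58.8%, and the dashed lines run close together.

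The 24 genes that follow took a further 14.3 ± 1.30% of the reads, and 11 of them have no informative product name. Apolipophorin (APLP, C0J52_00889), the protein core of the lipoprotein that carries lipid through insect hemolymph, came second with 2.20%, 3.12%, 3.005% and 2.19% of the reads of libraries 1, 3, 4 and 5. By share of all reads, libraries 3 and 4 formed the higher pair and libraries 1 and 5 the lower, with no value between 2.20% and 3.005%. In TMM-scaled CPM, APLP had 19957, 33001, 29003 and 23622.5 in libraries 1, 3, 4 and 5, the same pairs with more even steps. The Cr-PI genes encode cockroach allergens related to the hexamerins, proteins that insects store as a source of amino acids. Of these, 4 stand side by side on contig PYGN01001206.1, from CRPI_2 at position 426997 to CRPI_4 ending at 477512. CRPI_3 took 1.68%, 1.24%, 1.66% and 1.36% of the reads, CRPI_4 took 0.409 ± 0.0794%, CRPI_2 took 0.343 ± 0.0951% and CRPI_1 took 0.0302 ± 0.00797%. For CRPI_3 and CRPI_4 libraries 1 and 4 were the higher pair by share, whereas CRPI_2 was highest in library 4 alone at 0.480%. The leading gene took least in libraries 1 and 4 (51.1% and 53.1%), which raises the shares of all other genes there. In TMM-scaled CPM, CRPI_3 had 15224, 13141, 16069 and 14653 in libraries 1, 3, 4 and 5, so libraries 1 and 5 were close. Reads that fit more than 1 of these similar genes were divided in a way no source used here states, so the division among the 4 is uncertain.

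Catalase (Cat, C0J52_01914), which breaks down hydrogen peroxide, was the third named gene, at rank 6, with 1.06%, 0.779%, 1.03% and 0.682% of the reads in libraries 1, 3, 4 and 5. Libraries 1 and 4, where the leading gene took least, again formed the higher pair by share, as for CRPI_3. The unnamed genes C0J52_05895 (1.60 ± 0.185%), C0J52_10194 (0.990 ± 0.132%), C0J52_00453 (0.838 ± 0.0897%) and C0J52_12679 (0.742 ± 0.131%) filled ranks 3, 5, 7 and 8. Neighbours in this order differ by less than 1 SD for C0J52_05895 and CRPI_3 for C0J52_10194 and Cat, and for Cat and C0J52_00453, so those orders are not settled. Of the leading 10 genes 7 have no informative name.

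Translation factors and metabolic enzymes stood close behind. EF1A, which brings aminoacyl-tRNA to the ribosome, took 0.367 ± 0.0418% of the reads, and EF2, which moves the ribosome along the message, 0.277 ± 0.0178% (SD, n = 4). Beta-ureidopropionase (UPB1_0), the last enzyme of pyrimidine breakdown, took 0.315%, 0.259%, 0.325% and 0.342% in libraries 1, 3, 4 and 5, and library 3 was the low one. Inositol oxygenase (miox), which opens the inositol ring, took 0.205%, 0.176%, 0.325% and 0.211%, with library 4 the high one. The lysosomal protease cathepsin L (CATL_5) took 0.396%, 0.151%, 0.180% and 0.224%, with library 1 the high one. Lipoyltransferase LIPT1 and death-associated protein 1 (DAP) took 0.248 ± 0.0293% and 0.248 ± 0.0353%, and both were lowest in library 4. The unnamed C0J52_10136 (PYGN01000291.1:398709-410727), at rank 14 with 0.327 ± 0.0652%, overlaps the ferritin subunit gene FERH, which stores iron and took 0.0768 ± 0.0121%. Whether reads of such overlapping genes were divided by strand is stated in no source used here.

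**Figure D2:**
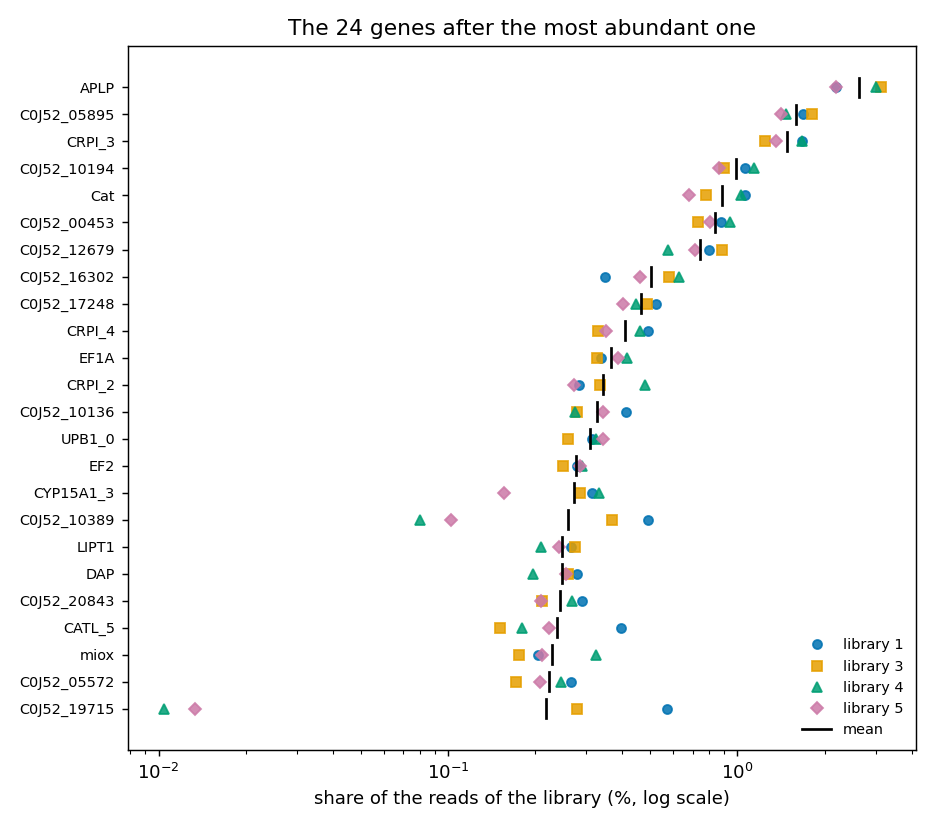
Share of the reads of each library (%, log scale) for the 24 genes that follow the most abundant one, 1 row a gene, 1 symbol a library, and a bar at the mean. Most genes keep the 4 libraries within a narrow band, while C0J52_10389 and C0J52_19715 split into libraries 1 and 3 against libraries 4 and 5.

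Named products accounted for 25.3 ± 2.15% of the reads (SD, n = 4), from 6680 genes of which 4316 had a mean of at least 10 reads. Genes without an informative name, 21996 of the 28676, took 74.7 ± 2.15% of the reads. Once the leading gene was left out, they took 43.6 ± 1.30% of the reads. Of the 9791 genes with a mean of at least 10 reads 5475 are unnamed. Of the 100 genes with the largest shares 42 are unnamed, and of the first 1000 genes 390, both a smaller part than among those 9791. In the sentences that follow, each gene belongs to 1 product class by its annotated name, and names were not checked by sequence.

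Proteins exported to the hemolymph led the named classes, apart from the 6.06 ± 0.432% of reads of 2613 named products that fell in no class. Storage proteins (8 genes) took 2.76%, 2.10%, 2.83% and 2.16% of the reads in libraries 1, 3, 4 and 5. Libraries 1 and 4, where the leading gene took least, were the higher pair by share. CRPI_3 made 60.3% of the class. The remaining Cr-PI gene, CRPI_0, took 0.251%, 0.155%, 0.168% and 0.137%, and its neighbour, hexamerin HEXA, took 0.0309%, 0.0128%, 0.0178% and 0.0207%; both were highest in library 1. The class also holds 2 hemocyanin chains, relatives of the hexamerins that carry oxygen, of which HCYA had 0.404, 0.561, 0 and 0.357 CPM in libraries 1, 3, 4 and 5 and HCYB had reads in library 3 alone. Lipid carriers (8 genes) took 2.66 ± 0.498% of the reads, of which APLP was 98.7%. The fatty acid-binding protein FABPM_0, which carries lipid inside cells, took 0.0255 ± 0.00814%. Transferrin (TRF), an iron carrier of the hemolymph, had 351, 251, 495 and 906 CPM in libraries 1, 3, 4 and 5, so that the highest library was 3.61 times the lowest. Immune defence (56 genes, 28 with a mean of at least 10 reads) took 0.127 ± 0.0207% of the reads, including LPSBP_2, a lipopolysaccharide-binding protein, with 130 ± 16.5 CPM, and Drs_7, a gene of the drosomycin name (an antifungal peptide of flies), with 20.04, 9.28, 14.3 and 16.4 CPM. The annotation lists 3 genes for lipocalins, odorant-binding and takeout proteins, and all 3 are listed at 0 reads in every library.

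Translation and protein export came next. The 80 genes of cytosolic ribosomal proteins took 1.36%, 1.13%, 1.64% and 1.36% of the reads, with library 4 the highest and library 3 the lowest. Of these genes 73 had reads in all 4 libraries, with a median of 0.0127% of the reads and a highest share of 0.0678%. Translation factors (46 genes) took 0.979 ± 0.0676% of the reads. The machinery that brings proteins into and through the endoplasmic reticulum (43 genes) took 0.837%, 1.02%, 1.14% and 0.807%, with libraries 3 and 4 above libraries 1 and 5, the same pairs as for APLP. Its leading genes were the calcium-binding chaperone calreticulin (crt), with 1376, 1996, 1868 and 1523 CPM, and protein disulfide-isomerase (Pdi), which forms disulfide bonds, with 878, 1254, 1895 and 959 CPM. Serp2, a small stress-associated protein of the same membrane, had 581, 427, 612 and 538 CPM and did not follow those pairs. Golgi and vesicle genes took 0.637 ± 0.0539%, and aminoacyl-tRNA synthetases, which load tRNAs, 0.0745 ± 0.00706%.

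Among metabolic classes, amino acid, urate and nitrogen metabolism took 0.816 ± 0.0974% of the reads. Its first gene, uricase (Uro), which oxidises urate, had 2614, 437, 766 and 1462 CPM in libraries 1, 3, 4 and 5, a 5.98-fold range with library 1 highest. Antioxidant enzymes took 0.966 ± 0.191%, of which catalase Cat was 91.7%. Fatty acid and lipid synthesis took 0.354%, 0.293%, 0.671% and 0.380%, and library 4 stood above the other 3. Its 3 leading genes held 57.8% of the class and so largely set its value. They were the desaturase D11DS_0 with 770, 482, 3072 and 1164 CPM, the ligase acsbg2_0 with 495, 349.6, 1007 and 579 CPM, and fatty acid synthase Fasn with 261, 430.1, 703 and 399.99 CPM. Of the 30 genes of this class with a mean of at least 100 reads, 12 were highest in library 4, against 24.4% of all genes. Lipases took 0.324%, 0.0944%, 0.337% and 0.285%, and library 3 stood below the other 3. Lip3_9 alone made 78.8% of the class, with 2261, 425, 2803 and 2595 CPM.

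Oxidative phosphorylation took 0.431 ± 0.0523% of the reads, the tricarboxylic acid cycle 0.230 ± 0.0222%, and fatty acid oxidation 0.251 ± 0.0239%. Sugar metabolism took 0.421 ± 0.0660%, led by phosphoenolpyruvate carboxykinase (Pepck), which commits carbon to glucose synthesis, with 1718, 666, 237 and 521 CPM. Pyruvate kinase (PyK_0), which works in the opposite direction at the end of glycolysis, had 426, 570, 854 and 592 CPM: library 1 was highest for Pepck and lowest for PyK_0, and library 4 the reverse. Purine and pyrimidine metabolism took 0.542%, 0.519%, 0.538% and 0.556% of all reads and 1.21 ± 0.105% of the reads without the leading gene.

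**Figure D3:**
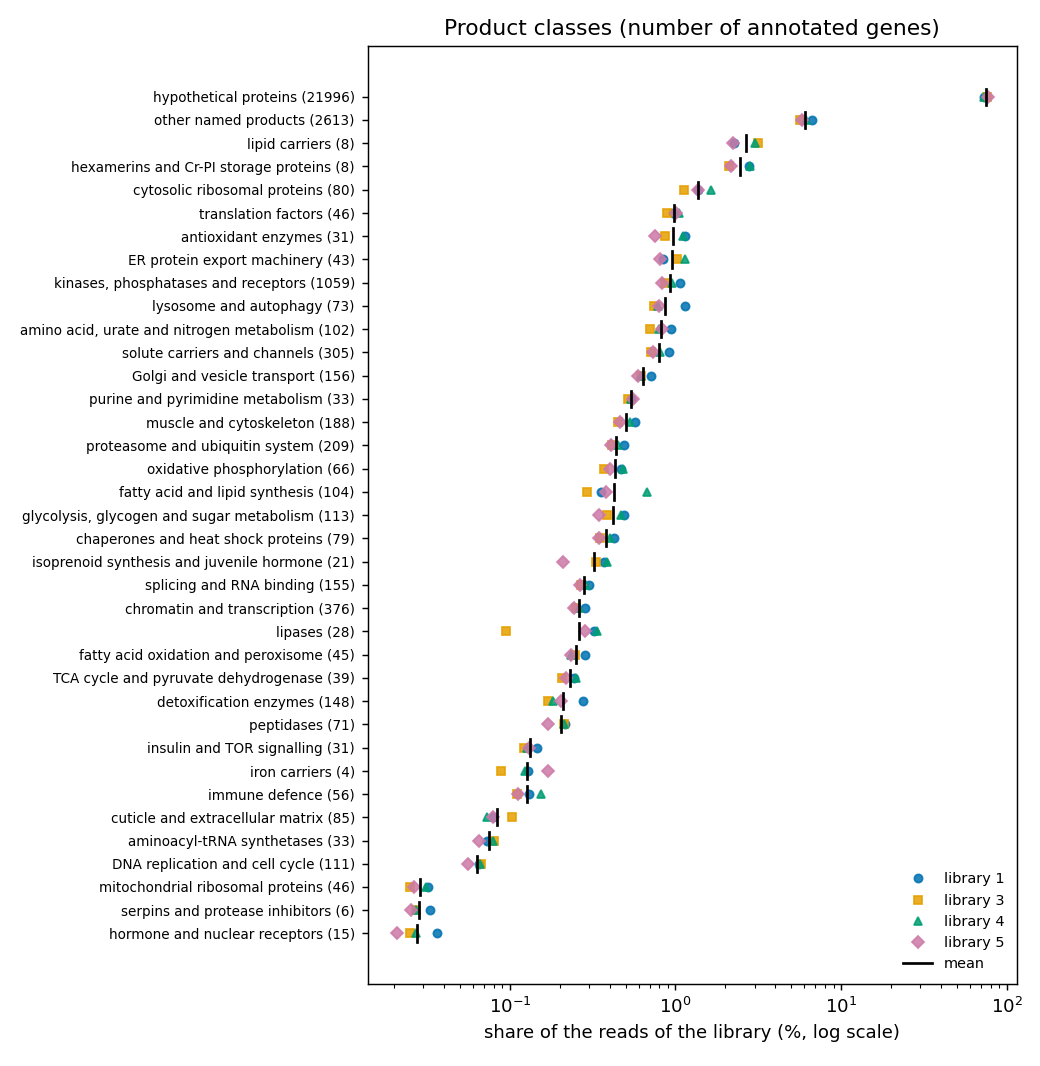
Share of the reads of each library (%, log scale) by product class, with the number of annotated genes in parentheses, 1 symbol a library and a bar at the mean. Hypothetical proteins hold 74.7% and no named class reaches 10%; library 4 stands to the right for fatty acid and lipid synthesis and library 3 to the left for lipases.

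Genes tied to the hormones of reproduction were measured as well. CYP15A1_3, annotated as methyl farnesoate epoxidase, the P450 enzyme that completes juvenile hormone in the corpora allata of cockroaches, ranked 17th of all genes by reads with 2856, 3014, 3214 and 1682 CPM. Library 5 was the low one. The name is shared by 6 genes of this annotation, of which CYP15A1_0 had 40.9 to 66.9 CPM, CYP15A1_1 had 15.6 to 34.9 CPM, CYP15A1_5 had 2 reads on average, and CYP15A1_2 and CYP15A1_4 were listed at 0 in all libraries. Farnesyl diphosphate synthase (fps), of the mevalonate pathway that feeds juvenile hormone synthesis, had 126, 143, 188 and 199 CPM. The gene annotated as juvenile hormone esterase was listed at 0 in all libraries. The ecdysone receptor EcR had 64.3, 68.9, 42.0 and 41.6 CPM, so that libraries 1 and 3 lay apart from 4 and 5. Its partner RXR had 5.25, 9.03, 7.05 and 7.08 CPM, and the early ecdysone gene Eip75B 242, 167, 194 and 155 CPM.

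Insulin and TOR signalling (31 genes, 23 with a mean of at least 10 reads) took 0.132 ± 0.0104% of the reads. The only gene annotated as insulin-like receptor (InR, C0J52_14014) had 45.8, 48.6, 48.2 and 47.3 CPM in libraries 1, 3, 4 and 5, a coefficient of variation (CV, SD over mean) of 2.61%, below the 3.38% that counting error alone would give at its read number. The transcription factor FoxO, which insulin signalling holds out of the nucleus, has 2 gene models, foxo_1 with 99.3 ± 12.6 CPM and foxo_0 with 20.1 ± 2.83 CPM, both highest in library 1. The largest share of the class, 42.4%, was that of IGFBP, a binding protein related by name to those of mammalian insulin-like growth factors, with 550.2, 535, 523 and 622 CPM. Igfals, named after another subunit of that mammalian complex, had 177, 199, 197 and 218 CPM. The kinase mTOR (Mtor_1) had 51.6 ± 8.47 CPM and its activator Rheb 59.1 ± 6.57 CPM. The putative insulin-like peptide Ilp7 was listed at 0 in all libraries.

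The tissue label was checked against lists of marker genes. All 15 fat body markers had a mean of at least 10 reads, and together they reached 48125 to 57735 CPM, without the leading gene. Most of that sum, 52834 CPM on average, came from APLP (26396 CPM) and CRPI_3 (14772 CPM). The planned names vitellogenin, arylphorin, phenylalanine hydroxylase and adipokinetic hormone receptor gave no member. Melanotransferrin, matched by the transferrin name, had 15.0 CPM on average. Among the fat body markers of stored fuel, Lsd-2, a protein of lipid droplets, had 37.8, 30.0, 43.5 and 32.5 CPM in libraries 1, 3, 4 and 5. Glycogen phosphorylase (GlyP), which releases glucose from glycogen, had 21.3, 36.0, 44.6 and 29.5 CPM. Trehalose phosphate synthase (tpsA), which makes the blood sugar of insects, had 18.2, 25.4, 21.1 and 23.4 CPM. Muscle markers reached 103 to 203 CPM over 18 genes, hemocyte markers 197 to 224 CPM over 7, germline and ovary markers 103 to 165 CPM over 8, nervous tissue markers 11.3 to 15.6 CPM over 43 (26 at 0 in all libraries), and cuticle markers 1.88 to 13.5 CPM over 53 (41 at 0). The piwi-like gene Siwi made most of the germline sum with 79.7 to 134 CPM, whereas vas_1, a gene of the vasa name, had 2.83 to 7.97 CPM and nanos1 at most 0.662 CPM. Of the gut and Malpighian tubule list, at 1301 to 1686 CPM, proton pump subunits that other cells use too made 1042 to 1438 CPM. The 17 genes of its digestive enzymes summed to 166, 158, 103 and 47.8 CPM in libraries 1, 3, 4 and 5, nearly all from trypsin-2 (TRYP2, 161, 156, 100.2 and 40.2 CPM), and 8 of them, including the only amylase, were at 0. In bulk RNA, more cells of a type and more RNA per cell cannot be told apart.

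Variation between libraries was measured on CPM after TMM scaling (edgeR), for the 5165 genes with a mean of at least 100 reads. Their median CV was 15.3%, with quartiles at 10.2% and 22.8%, against a median of 5.46% that counting error alone would give. For 334 genes (6.47%) the spread was within counting error. The highest library was less than 2 times the lowest for 4487 genes (86.9%) and at least 4 times for 171 genes (3.31%). More reads did not bring the spread down to counting error: in the 105 genes with a mean of at least 10000 reads the median CV was 16.5%, where counting would give 0.696%. Named genes had a median CV of 14.5% and unnamed genes 16.2%, and a 4-fold range occurred in 2.30% and 4.41% of them. A second measure of spread, the edgeR dispersion, has counting error removed and was fitted to 8639 genes, including less abundant ones. As a CV it was 24.5% in common and 21.3% in the median gene.

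**Figure D4:**
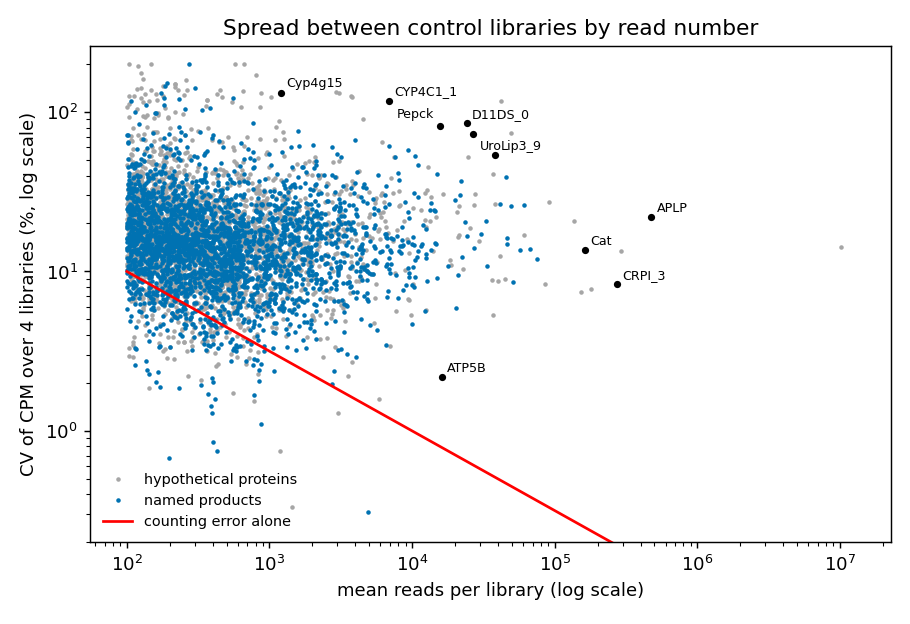
Coefficient of variation of CPM over the 4 libraries (%, log scale) against mean reads per library (log scale) for the 5165 genes with a mean of at least 100 reads; the red line is the CV from counting error alone. Most genes lie above the line, the median CV is 15.3%, and ATP5B lies low among the abundant genes at 2.17%.

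The 10 named genes with the smallest CV, from 0.310 to 1.69%, included genes of vesicle traffic and RNA decay. ARCN1, a coat subunit of vesicles between Golgi and endoplasmic reticulum, had 265, 267, 267 and 267 CPM, a CV of 0.310% where counting alone would give 1.42%. KdelR, the receptor that returns proteins to the endoplasmic reticulum, had 47.0 to 48.1 CPM, and CNOT7, of the complex that shortens mRNA tails, 20.7 to 21.4 CPM. With 4 libraries some of 5165 genes fall below their counting error, so these low values rank genes and do not measure their true spread. Among abundant genes the beta subunit of ATP synthase (ATP5B) had 846, 875, 888 and 884 CPM, a CV of 2.17% against 0.788% from counting. HADHA, a subunit of the trifunctional enzyme of fatty acid oxidation, had 261, 286, 274 and 289 CPM, and the ribosomal protein RSSA 652, 639.7, 669 and 725 CPM.

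Among classes, median CVs ran from 11.4% for the proteasome and ubiquitin system (131 genes), 11.7% for translation factors (42) and 12.1% for insulin and TOR signalling (18) to 26.3% for antioxidant enzymes (17), 26.5% for sugar metabolism (42), 28.5% for immune defence (18) and 30.1% for lipases (8), beside 15.3% for all genes. A 4-fold range occurred in 8 of 38 detoxification enzymes and 8 of 105 solute carriers. It occurred in none of the 131 proteasome, 110 Golgi, 51 oxidative phosphorylation or 40 endoplasmic reticulum export genes. Over all genes it was 3.31%, a rate at which classes of 51 or 40 genes would hold few such genes or none.

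Abundant variable genes did not follow 1 order of libraries. The cytochrome P450 CYP4C1_1, of a family that oxidises fatty acids and foreign compounds, had 899, 213, 12.3 and 199.97 CPM in libraries 1, 3, 4 and 5, a 73.3-fold range. Cyp4g15 had 12.7, 28.1, 24.2 and 188 CPM, so that library 5 alone was high. Maltase Mal-B1_3 had 252, 313, 747 and 250.4 CPM, with library 4 alone high. The unnamed genes C0J52_19715 and C0J52_10389, both among the 25 leading genes, separated libraries 1 and 3 from 4 and 5: the first had 5174, 2953, 100.5 and 144 CPM and the second 4457, 3902, 775 and 1109 CPM. The pair C0J52_27173 and C0J52_28070 split the same way, with 10844 and 10784 reads in library 1, 4160 and 4443 in library 3, and none in libraries 4 and 5. These 2 lie on different contigs with near-equal values, and reads shared between copies cannot be told apart here. Both tim genes, named after the clock protein Timeless and adjacent by locus number, were lowest in library 3: tim_1 had 44.7, 11.6, 60.4 and 40.8 CPM and tim_0 11.7, 2.24, 16.9 and 9.73 CPM. The tim genes, the pair C0J52_27173 and C0J52_28070, and the replication genes described further on were singled out after their values were seen.

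One order of libraries was more frequent than the others. Among the 171 genes with a 4-fold range, library 1 was highest for 81 (47.4%), against 28.1% of all 5165 genes, and 34 (19.9%) followed the order 1, 4, 3, 5 from high to low, against 4.10% of all genes; in 1 of the 34 libraries 3 and 5 were both at 0 reads. The named ones include the monocarboxylate transporters SLC5A8_0 (29.4, 1.56, 4.97 and 0.102 CPM in libraries 1, 3, 4 and 5), Slc5a12_1 (44.5, 1.99, 10.7 and 0.713 CPM) and SLC5A8_1 (24.6, 1.31, 7.80 and 0.357 CPM), a family known from kidney and intestine in mammals. The drug exporter ABCC4_1 (24.5, 2.80, 8.18 and 0.204 CPM) and the esterase EST6_1 (30.8, 2.24, 12.1 and 0.866 CPM) followed the same order. The unnamed C0J52_26834, with 438, 41.7, 111 and 5.76 CPM, was the most abundant of them. Dual oxidase (Duox), which makes hydrogen peroxide at epithelial surfaces, had 27.8, 3.36, 2.64 and 1.07 CPM, with library 1 also highest. Beside these, the gut and Malpighian tubule list summed to 1686, 1301, 1363 and 1365 CPM and its digestive enzymes to 166, 158, 103 and 47.8 CPM, and the muscle list to 203, 103, 138 and 150.4 CPM; their part in this order was not tested.

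Genes of some classes were often highest in the same library. Over all 5165 genes, libraries 1, 3, 4 and 5 were highest for 28.1%, 25.9%, 24.4% and 21.6% and lowest for 26.2%, 29.0%, 25.9% and 18.9%. Of the 73 cytosolic ribosomal protein genes with a mean of at least 100 reads, 63 were highest in library 4 and 10 in library 5, and 54 were lowest in library 3 and 19 in library 1. Of the 51 oxidative phosphorylation genes, 39 were highest in library 4 and 31 lowest in library 3. Immune defence gave 11 of 18 highest in library 4 and 13 lowest in library 3. The 40 genes of endoplasmic reticulum export were highest in library 3 (20) or 4 (16) and lowest in library 1 (26). Aminoacyl-tRNA synthetases were highest in library 3 for 16 of 21 and in library 1 for none. Lysosome and autophagy genes were highest in library 1 for 22 of 36, among them cathepsin L (CATL_5) with 3598, 1598, 1737 and 2418 CPM. Under library totals in place of TMM, 2482 of all 5165 genes were highest in library 1, 1433 in library 4 and 813 in library 3, and 566 were lowest in library 1. Ribosomal protein genes then gave 71 of 73 highest in library 4, oxidative phosphorylation 31 of 51, immune defence 9 of 18 and lysosome genes 25 of 36 highest in library 1. Export genes were then highest in library 4 for 20 and in library 3 for 15 and lowest in library 1 for 17, and synthetases were highest in library 3 for 12 and in library 1 for 2. These counts describe which library was highest and do not say that a difference passes a test; genes of a class are not independent replicates.

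**Figure D5:**
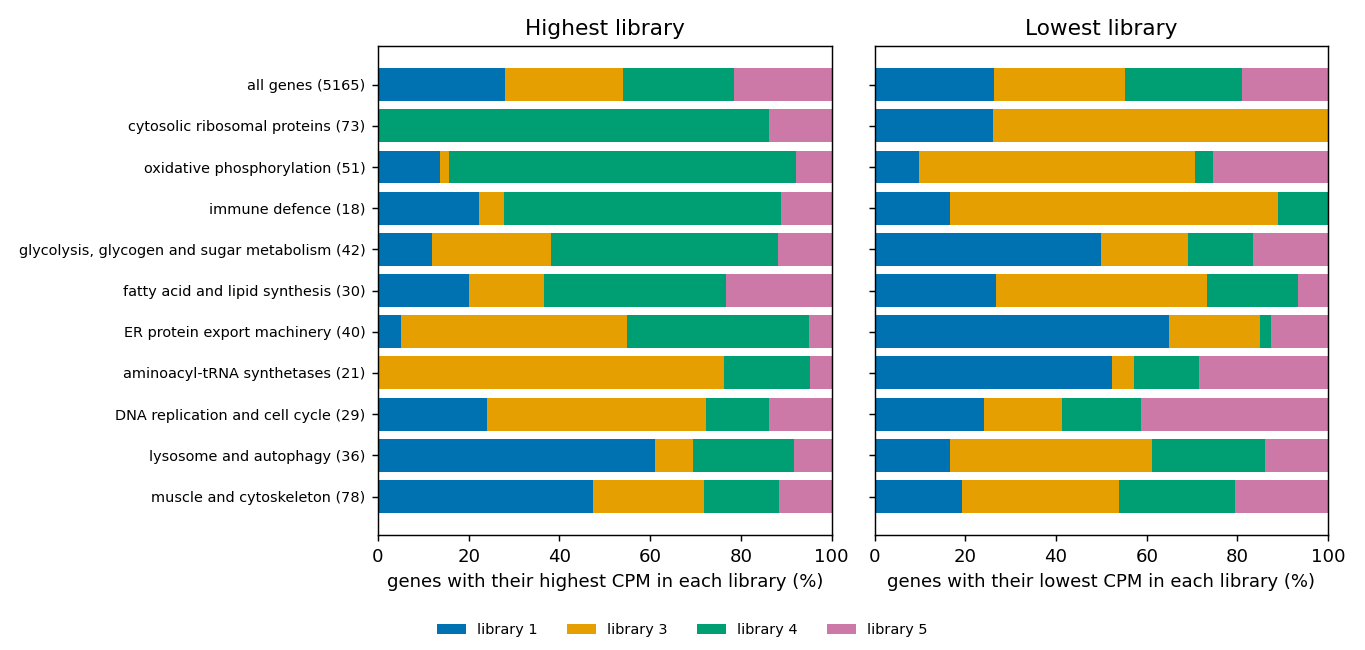
Share of genes (%) whose highest (left panel) or lowest (right panel) CPM was in each of the 4 libraries, for all 5165 genes with a mean of at least 100 reads and for 10 product classes, with gene numbers in parentheses. Ribosomal protein genes are highest in libraries 4 and 5 and lowest in libraries 3 and 1 only, while all genes divide more evenly.

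The replication licensing factors, noticed after their values were seen, had a further shared order at low levels. All 6 genes annotated as replication licensing factors, the ring of MCM proteins that opens DNA at origins, were highest in library 3 and next in library 4, and 3 of them had a mean of at least 100 reads. Mcm7 had 4.71, 18.2, 8.05 and 4.23 CPM in libraries 1, 3, 4 and 5, Mcm5 had 2.82, 12.1, 5.66 and 3.21 CPM, and Mcm2 had 1.97, 11.5, 6.48 and 3.57 CPM. The CVs of these 3 were 71.3 to 74.0%, and those of all 6 ran from 69 to 86%. The 29 replication and cell cycle genes with a mean of at least 100 reads, these 3 among them, had a median of 16.1%. Of the 29 genes 14 were highest in library 3, 7 in library 1 and 4 in each of libraries 4 and 5, against 25.9% of all genes highest in library 3. Under library totals 11 of the 29 were highest in library 3, against 813 of all 5165 genes. Of 22 purine and pyrimidine genes 10 were highest in library 3, or 7 under library totals. The synthesis genes ade5 (49.9, 261, 110.1 and 198 CPM) and ATIC (125, 253, 127 and 134 CPM) were among the 10. The germline and ovary list, at 133, 165, 103 and 126 CPM, was highest in library 3 too, and its part was not tested.

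Some genes were listed at 0 in 1 library and were abundant in another. There were 31 genes at 0 in at least 1 library and at 10 CPM or more in another, 24 of them unnamed and 8 overlapped by another gene. For comparison, 21996 of all 28676 genes are unnamed, and 13 of the 25 leading genes are overlapped. Of the 31 genes 16 were at 0 in 1 library, 8 in 2 and 7 in 3. The ribosomal protein gene RpS15Aa had 1096 reads in library 4 and 0 in the other 3, and 5 further genes of ribosomal protein names (RpS12, RpL29_0, RPL29B, RpL32_1 and RpS15Ab) were listed at 0 in all 4 libraries, although every cell uses such proteins. A 0 in this table is not taken here to mean an absent transcript. Whether the transcript was absent or its reads were not assigned to the gene model was not tested. Among the 31 genes, 6 unnamed ones had reads in library 5 alone, with C0J52_23565 at 2649 reads and C0J52_22120 at 2291 reads, and the other libraries listed at 0.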

How the data were processed

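PolyA RNA from fat body was made into libraries with Illumina's stranded TruSeq kit, per the labels' protocols. The authors deposited raw read counts per gene in 1 table of build Bger_1.1. The submitters' processing notes name StringTie, HISAT2, Trimmomatic and FastQC, with no settings. No source used here states how strand and reads matching several genes were handled. The 4 count columns of the control were used and 44 other columns of per-library values were not. The deposited values per transcript length were among these: a column could be tied to its group but not to 1 sample, so 1 measure per group was kept. The columns headed dspolyh were read as dsMock, as the names of all other columns match another group. All 28676 genes matched a locus tag of the RefSeq annotation of the same build, which gave contig positions.

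Shares are reads over the library total. CPM used TMM scaling (edgeR 4.0.16 in R 4.3.3), with factors of 0.926 to 1.10. On the log2 scale the factors, by which the library total is multiplied before division, were 0.14 in library 1, -0.08 in library 3, 0.05 in library 4 and -0.11 in library 5, and differences between libraries are relative to them. CV and range used genes with a mean of at least 100 reads. The CV step was tested on simulated data. No groups were compared and no test of a difference was run; Dixon's ratio only marks values for a closer look. The labels list 4 separate samples without saying that cultures or animals were separate, so the spread may be partly technical. Product classes (40 patterns of product names, applied in order) and marker lists were matched to names; patterns were corrected, and the purine and pyrimidine class added, after names and shares were seen. Named genes were the 25 largest shares, up to 3 per class, the 10 named and 5 unnamed genes with the largest CV, the 10 named with the smallest, leading markers and the insulin receptor; members of classes described further and genes of shared orders were added after their values were seen. Members and lists were chosen with earlier results of these data known. Alternatives were DESeq2 1.42.0 size factors, library totals, other read minimums and leaving out the leading gene or a library. Intervals are exact 95% Clopper-Pearson intervals.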

Additional observations from a re-analysis of the deposited data

Results flagged for a closer look

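Of 214 values with 4 libraries each (classes, named genes, marker lists and depth), 22 had 1 library apart from the other 3, by a gap beyond Dixon's 95% critical value for 4 values; chance gives about 1 in 20 such groups, and several values overlap. Of the 22, 9 are among the 15 genes named for their large CV (RpS15Aa, SLC5A8_0, Duox, Cyp4g15 and the 5 unnamed genes), so their gap follows from that choice and the chance rate does not apply to them. Without those 15 genes, flagged values were little more frequent than the chance rate, so the values listed next are not set apart from chance. Class values are shares of all reads, which the leading gene lowers most in library 5 (58.8% of its reads) and least in library 1 (51.1%). Whether the class gaps remain without that gene was not tested. By share of all reads, library 5 was low for peptidases (0.170%, others 0.213 to 0.216%) and for replication and cell cycle genes (0.0558%, others 0.0653 to 0.0671%). It was high for Cyp4g15 (188 CPM, others 12.7 to 28.1), Nedd4 (191 CPM, others 167 to 170.2), Spn88Ea (5.86 CPM, others 0.762 to 1.49), and for the unnamed C0J52_23565 (135 CPM), C0J52_22120 (117 CPM), C0J52_00126 (30.1 CPM), C0J52_15573 (20.9 CPM) and C0J52_12795 (24.1 CPM), which the other libraries list at 0 or at most 0.249 CPM.

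By share of all reads, library 1, where the leading gene took least, was high for lysosome and autophagy genes (1.14%, others 0.738 to 0.799%). In CPM, library 1 was high for the gut and Malpighian tubule list (1686 CPM, others 1301 to 1365), SLC5A8_0 (29.4 CPM, others 0.102 to 4.97) and Duox (27.8 CPM, others 1.07 to 3.36), and low for BicD (12.9 CPM, others 16.9 to 17.4). Library 3 was high for PRCP (277 CPM, others 165 to 181) and UBA1 (189 CPM, others 154 to 159) and low for PRP1, the phenoloxidase of melanin formation (74.1 CPM, others 117 to 118). Library 4 was high for Mal-B1_3 (747 CPM, others 250.4 to 313), the trehalose transporter Tret1_11 (1075 CPM, others 681 to 711), RpS15Aa (68.9 CPM, others listed at 0) and sls_1 (26.4 CPM, others 22.4 to 23).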

How the results depend on the processing

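No paired analysis was possible because no groups were compared. The number of genes that hold 90% of the reads was 2169 without the leading gene. As shares of the reads without that gene, storage proteins took 5.47%, lipid carriers 5.96%, ribosomal proteins 3.06%, endoplasmic reticulum export 2.12% and hypothetical proteins 43.6%. A minimum mean of 1 read gave a median CV of 25.8%, and a minimum of 10 reads gave 878 genes with a 4-fold range, 8.97% of 9791. DESeq2 size factors and library totals gave a median CV of 15.2% and 17.2% and 172 and 174 genes with a 4-fold range. Leaving out 1 library at a time, the leading gene's share ran from 53.9 to 56.4%, the median CV from 13.6 to 15.5% and the 4-fold count from 119 to 148. Shares per coding length were not run, as no protein lengths were at hand. Ranks by reads therefore favour long transcripts, and the 4 libraries and the unstated division of shared reads limit the precision of all values.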
